A study of Mus musculus with 28 samples.

Results

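The large odorant receptor cluster of mouse chromosome 2 was taken as every RefSeq gene or pseudogene on chromosome 2 whose symbol starts with Olfr and a digit and which lies between 85.2 and 90.6 Mb (assembly GRCm38.p6, the build called mm10). This gave 293 members, 222 protein-coding genes and 71 pseudogenes, of 1427 Olfr genes and pseudogenes on the main chromosomes (20.5%). The first member was Olfr987 (protein-coding, start 85330967) and the last was Olfr1274 (protein-coding, end 90401674). The members thus filled a stretch of 5.07 Mb at 57.8 members per Mb. The span limits cut through no run of Olfr genes: the first member started 0.131 Mb inside the lower limit and the last ended 0.198 Mb inside the upper one. All 84 other Olfr genes of chromosome 2 belonged to 2 separate clusters, 1 of 37 members that ended with Olfr368 at 37332732 and 1 of 47 that began with Olfr1275 at 111230853.

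The study mapped chromatin-bound proteins in olfactory sensory neurons by chromatin immunoprecipitation and sequencing (ChIP-seq), and 11 of its 28 samples had a peak list. Ldb1 was mapped in 2 libraries of Lhx2 KO neurons, whose mice carried OMP-IRES-Cre with Lhx2fl/fl alleles and the reporter Rosa-CAG-tdtom+/fl, so that Omp-driven Cre deletes Lhx2 in mature neurons. It was also mapped in 2 libraries of Olfr1507+ cells sorted from M28-IRES-GFP mice, which mark neurons that chose the receptor Olfr1507. Rad21 (in 2 libraries), CTCF (in 2) and Ldb1 (in 3) came from control mature olfactory sensory neurons sorted from OMP-IRES-GFP mice. The Lhx2 KO and control mice therefore differed in Cre and in the fluorescent reporter as well as in Lhx2. No group carried a change in the chromosome 2 cluster itself, per the labels. The labels give no age for these mice and leave unsaid whether replicate libraries were made from different mice; p-values then measure only the spread between these libraries. A peak comes from many sorted cells, and strong binding in few of them cannot be told apart from weak binding in many. The sorted cell type could not be checked against marker genes, since peak lists hold no expression values.

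Odorant receptors are G protein-coupled receptors, each usually encoded by a single coding exon, and their genes lie in tandem clusters that also hold many pseudogenes. A mature olfactory sensory neuron expresses a single receptor allele out of the whole repertoire. Intergenic enhancers scattered among the clusters, known as Greek Islands, are bound in these neurons by the LIM homeodomain factor Lhx2, by Ebf factors and by Ldb1, a cofactor that binds no DNA itself but bridges LIM factors. CTCF is a zinc finger protein that binds DNA and halts loop extrusion, and Rad21 is a subunit of cohesin, the complex that extrudes the loops.

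The lists differed widely in length. The Lhx2 KO Ldb1 libraries held 4290 and 542 peaks and the Olfr1507 Ldb1 libraries 5095 and 21250. Rad21 had 10487 and 28151 peaks, CTCF 27609 and 34210, and control Ldb1 24877, 28879 and 16067. The second Lhx2 KO list therefore stood apart as the shortest of all 11. The files give no read numbers, and a site without a peak is a site not called in that list. Scores are the authors' own whole numbers and served to order the peaks of 1 list, as a percentile in which 100 is the top-scoring peak.

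The 293 members lay in an almost peak-free stretch. Over the 5.4 Mb span and 100 kb on each side, the 11 lists together held 65 peaks, which fell at 26 separate sites. Only 12 of these peaks, at 6 sites, lay between the first and the last member. No peak of any library overlapped a member, and a single site lay within 1 kb of one. That site was a weak CTCF peak, called in the first CTCF library only (percentile 1.98), 0.148 kb from the pseudogene Olfr1069-ps1. Overlaps and sites within 1 kb were not counted for other Olfr genes, so these 2 counts are not read as particular to the cluster.

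Per library, the number of peaks between the first and the last member was 0 in both Lhx2 KO Ldb1 libraries, 1 in each Olfr1507 Ldb1 library and 0 in both Rad21 libraries. It was 4 and 1 in the CTCF libraries and 2, 2 and 1 in the control Ldb1 libraries. Over the span with its flanks the numbers were 1 and 1 for Lhx2 KO Ldb1, 2 and 9 for Olfr1507 Ldb1, 6 and 6 for Rad21, 9 and 10 for CTCF, and 8, 8 and 5 for control Ldb1. Most peaks of every library with more than a pair of them thus lay outside the row of receptor genes, at its edges. A region was then defined as linked peaks from 2 or more libraries of the same group. The span with flanks held 1 of 393 Lhx2 KO Ldb1 regions, 2 of 4989 Olfr1507 Ldb1 regions, 4 of 9881 Rad21 regions, 6 of 24877 CTCF regions and 8 of 22789 control Ldb1 regions. Between the first and the last member remained 0, 1, 0, 1 and 2 of them, in the same order of groups.

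**Figure D1:**
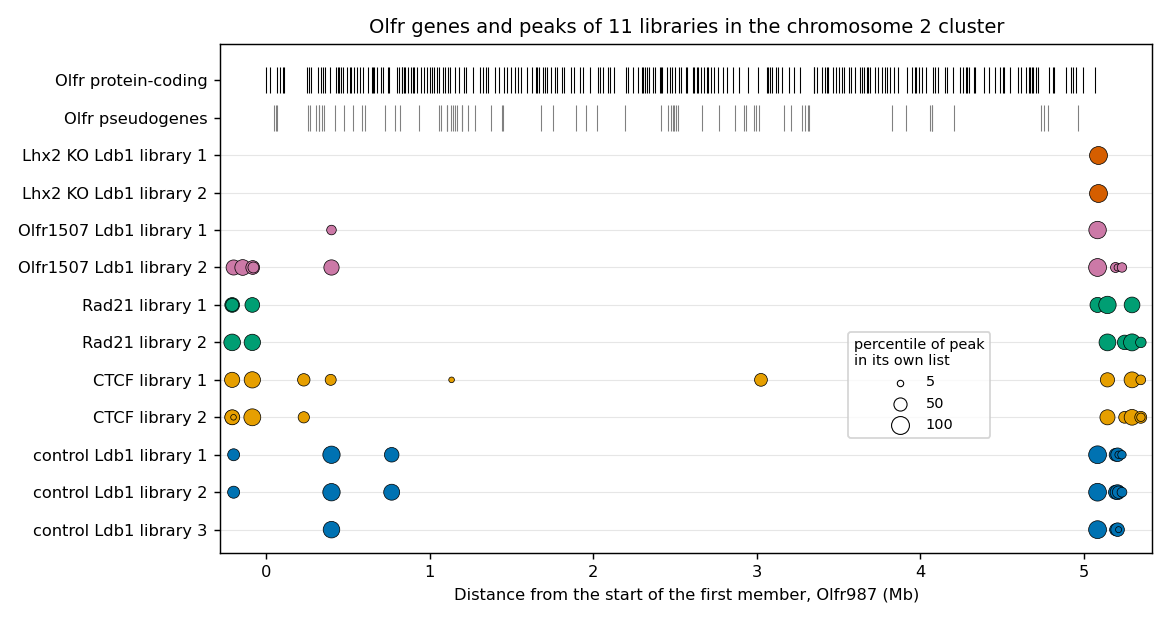
Positions of the Olfr members (ticks, protein-coding above pseudogenes) and of the peaks of each library (circles, 1 row per library) along the distance from the start of Olfr987 in Mb; circle size is the percentile of the peak's score in its own list. The members fill 5.07 Mb, and of the 65 peaks only 12 lie between the first and the last member.

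Peaks per Mb in the span were set against those in the 42 other Olfr clusters (runs of at least 3 Olfr genes with gaps up to 300 kb) and on the rest of chromosome 2. The density averaged 0.774 ± 0.437 peaks per Mb in the span, 2.12 ± 1.21 in the other clusters and 8.13 ± 5.16 on the rest of chromosome 2 (SD, n = 11 libraries each). It was lower in the span in 11 of 11 libraries in both comparisons. The mean difference was -1.34 peaks per Mb against the other clusters and -7.35 against the rest of chromosome 2. An exact two-sided sign-flip permutation test over the 11 libraries gave p = 0.000977 for each, the smallest p it allows. With only the upper 50% of each list by score the differences were -0.618 and -3.61 peaks per Mb, and against the rest of chromosome 2 the span was then lower in 10 of 11 libraries. The span reaches past the first and last member, while the other clusters end at their outer Olfr genes. From the first to the last member only, the differences were -1.90 and -7.91 peaks per Mb. The 11 libraries read the same loci with 3 antibody targets, so the test covers differences between libraries and not between pieces of the genome.

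By group, Lhx2 KO Ldb1 had 0.185 peaks per Mb in the span in both libraries, against 0.844 and 0.523 in other clusters and 1.99 and 0.214 on the rest of chromosome 2. In the second Lhx2 KO list the span and the rest of the chromosome were thus close, in a list of 542 peaks. The Olfr1507 Ldb1 libraries had 0.370 and 1.296 peaks per Mb in the span, against 2.16 and 9.39 on the rest of chromosome 2. Rad21 had 0.556 in both libraries, against 4.76 and 12.8, and CTCF had 1.11 and 0.741, against 12.1 and 15.1. The control Ldb1 libraries had 1.296, 1.296 and 0.926 peaks per Mb in the span, against 3.78, 4.26 and 2.73 in other clusters and 11.05, 12.8 and 7.04 on the rest of chromosome 2. In the 3 control Ldb1 libraries the lowest value on the rest of chromosome 2 was over 5 times, and the lowest in other clusters over 2 times, the highest value in the span.

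**Figure D2:**
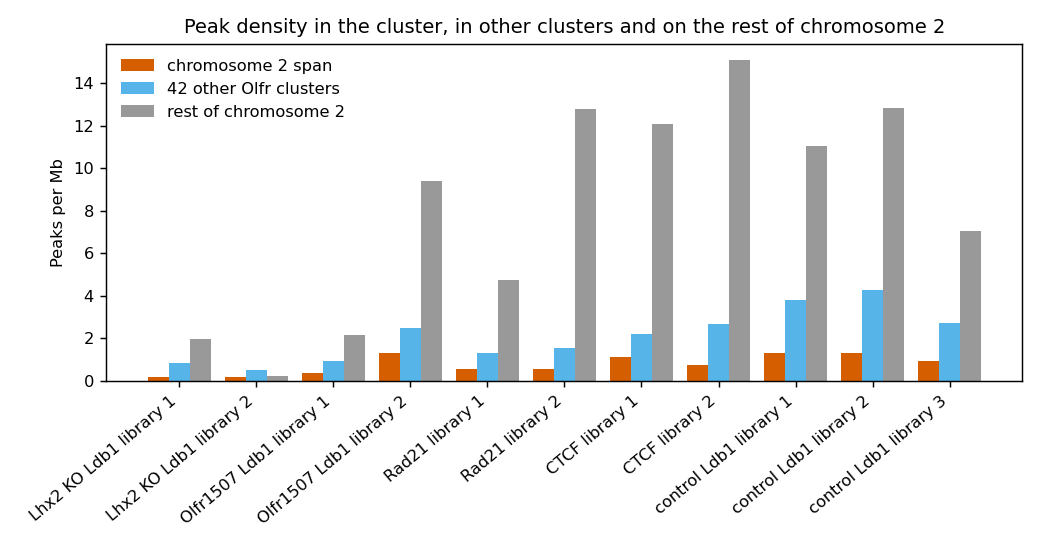
Peaks per Mb of each library in the chromosome 2 span, in the 42 other Olfr clusters and on the rest of chromosome 2 (bars, 1 set per library, axis from 0). The bar of the span is the lowest of the 3 in all 11 libraries, closest to the rest of chromosome 2 in the second Lhx2 KO Ldb1 library (0.185 against 0.214 peaks per Mb).

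The strongest Ldb1 site of the cluster lay at its upper edge, at chr2:90414235-90414617, between Olfr1274 and Ptprj, a receptor-type tyrosine phosphatase. It was 12.6 kb beyond the end of Olfr1274 and 15.1 kb before Ptprj. All 7 Ldb1 libraries had a peak there. Its scores were 51 and 39 in the Lhx2 KO libraries, 88 and 342 in the Olfr1507 libraries, and 315, 347 and 280 in the control libraries. In each Lhx2 KO list it ranked 1, tied with 1 other peak in the list of 4290 and alone in the list of 542. It ranked 257 of 5095 and 184 of 21250 in the Olfr1507 lists and 337, 472 and 89 in the control lists of 24877, 28879 and 16067 peaks. The site was thus in the top part of all 7 Ldb1 lists and, in both Lhx2 KO lists, at their head. The first Rad21 library had a peak there (rank 3075 of 10487), the second Rad21 library had none and neither CTCF library had one. As a control Ldb1 region it ranked 253 of 22789 by mean percentile (top 1.11%).

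The other strong control Ldb1 region lay inside the row of genes, at chr2:85730495-85730929, in the intergenic stretch between the coding gene Olfr1009 (8.14 kb away) and Olfr1010, which RefSeq lists as a pseudogene (17.4 kb away). Both Olfr1507 libraries had a peak there with scores of 20 and 50, and the 3 control libraries with scores of 164, 213 and 74. Neither Lhx2 KO list held a peak at this site. Its ranks were 3848 of 5095 and 6193 of 21250 in the Olfr1507 lists, and 1724, 1756 and 2451 in the control lists. By percentile it stood at 22.5 and 70.6 in the Olfr1507 lists and at 93.0, 93.9 and 84.6 in the control lists. These lists differ in length, a percentile depends on how many weaker peaks a list holds, and no difference between the groups is read from them. Over all control regions it ranked 2034 of 22789 (top 8.93%). These were the 2 of 8 control Ldb1 regions of the span and flanks that fell in the top 10% of control regions, a class that holds 10% of them by construction.

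The remaining Ldb1 region between members, chr2:86098632-86098971, lay 12.8 kb from the coding gene Olfr1037 and 21.3 kb from the pseudogene Olfr1038-ps. It was called in control libraries 1 and 2 (scores 37 and 80, percentiles 63.3 and 78.0) and in no other library of the study, and it ranked 11022 of 22789. The other 5 control Ldb1 regions lay beyond the receptor genes and ranked both above and below it. The region 3.67 kb from Aplnr, the apelin receptor gene, at the lower flank, ranked 16164 of 22789. The 4 regions inside Ptprj ranked 10861, 8752, 18598 and 20597. Of these 5 regions the second Olfr1507 library shared 4 and the Lhx2 KO libraries none.

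CTCF and Rad21 met at the flanks and not among the receptor genes. A lack of Rad21 regions among receptor genes was common to most clusters. Between their first and last Olfr gene the 42 other clusters had a median of 0 Rad21 regions, and 8 had more than the 0 found here. For CTCF the median was 0, and 24 clusters had fewer and 9 more than the 1 found here. These are counts per cluster and not per Mb. The other clusters were shorter, with a median length of 0.397 Mb and at most 2.48 Mb, against 5.07 Mb here. At 4 sites all CTCF and Rad21 libraries had a peak: chr2:85123171-85123621 (12.7 kb from Aplnr), chr2:85246504-85246847 (84.1 kb before Olfr987), chr2:90474765-90475111 (inside Ptprj, 73.1 kb beyond Olfr1274) and chr2:90625038-90625407 (in the lncRNA gene Gm39870, 223 kb beyond Olfr1274). The row of 293 members thus lay between a shared CTCF and Rad21 site below it and another above it. At the lower one the percentiles were 64.8 and 82.0 for Rad21 and 81.2 and 88.5 for CTCF, and at the upper one they were 94.2 and 87.4 for Rad21 and 59.96 and 68.5 for CTCF. The CTCF region among members, chr2:85561187-85561554, had no Rad21 peak and was weak (percentiles 43.6 and 34.3). It lay 17.7 kb from the coding gene Olfr996, in the largest gap between neighbouring members, 140 kb between Olfr995 and Olfr996, against a median gap of 13.0 kb. That gap also holds Fads2b, 1 of only 3 protein-coding genes between the first and last member that are not Olfr genes, with Pramel7 and Pramel6. The remaining 3 CTCF peaks among members, near Olfr1009 (3.41 kb), Olfr1069-ps1 (0.148 kb) and Olfr1177-ps (11.6 kb), were called in the first CTCF library only. Of the 26 sites, 11 were called in a single library.

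**Figure D3:**
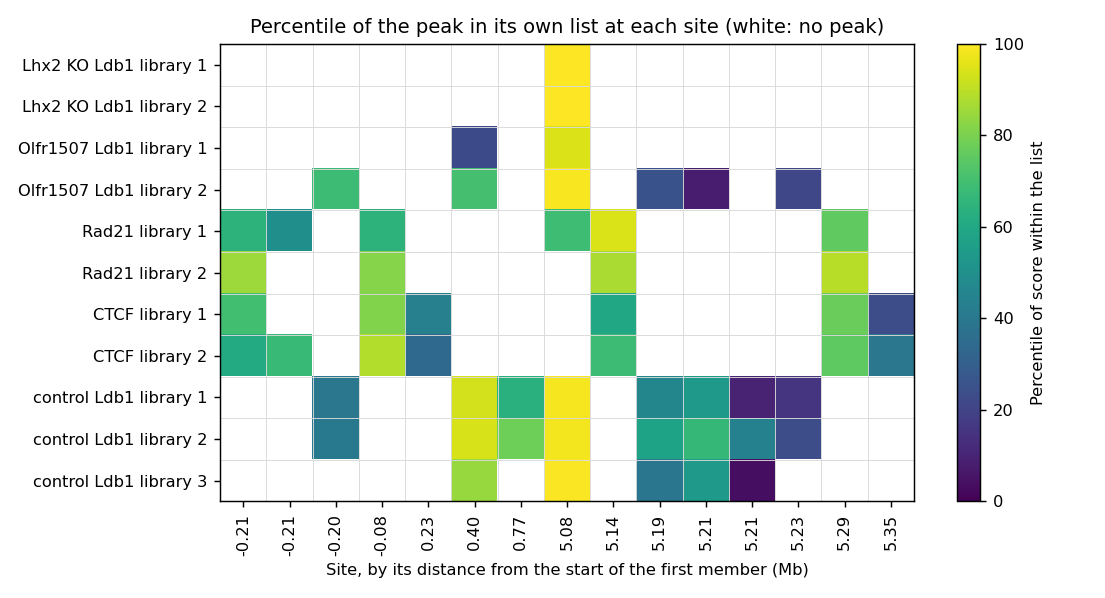
Percentile of the peak in its own list (colour, 0 to 100; white, no peak) for each library (rows) at the 15 sites with peaks of at least 2 libraries (columns, by distance from the start of Olfr987 in Mb). The column at 5.08 Mb is filled in all 7 Ldb1 libraries, and the columns at -0.08 and 5.14 Mb are filled in all Rad21 and CTCF libraries and in no Ldb1 library.

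The start regions of the members beside these sites, and of the coding member with a sequence that lay farthest from any control Ldb1 region, are shown because no peak touched them. They come from the RefSeq windows of 250 bases before and 50 after the annotated gene start (GRCm38.p6), given 5′ to 3′ on the gene's strand, with the homeodomain core TAATTA in capitals where it occurs. Olfr1009 (chr2:85721157-85721456, plus strand) lies beside the strongest region among members. Olfr1037 (chr2:86085805-86086104, minus strand) lies beside the region of control libraries 1 and 2. Olfr1274 (chr2:90400390-90400689, plus strand) lies beside the site at the upper edge, and Olfr1173 (chr2:88274998-88275297, minus strand) was 2139 kb from the nearest control Ldb1 region.
Olfr1009: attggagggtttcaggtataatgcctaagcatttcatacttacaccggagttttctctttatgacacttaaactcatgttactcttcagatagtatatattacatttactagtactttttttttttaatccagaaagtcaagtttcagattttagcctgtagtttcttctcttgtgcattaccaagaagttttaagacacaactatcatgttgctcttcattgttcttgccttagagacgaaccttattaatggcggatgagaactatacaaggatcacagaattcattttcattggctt
Olfr1037: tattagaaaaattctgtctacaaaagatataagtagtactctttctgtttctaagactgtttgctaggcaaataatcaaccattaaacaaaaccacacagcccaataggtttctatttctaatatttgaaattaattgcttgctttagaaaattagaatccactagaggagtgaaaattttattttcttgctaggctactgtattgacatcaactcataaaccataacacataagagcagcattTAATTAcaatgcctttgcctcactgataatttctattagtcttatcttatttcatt
Olfr1274: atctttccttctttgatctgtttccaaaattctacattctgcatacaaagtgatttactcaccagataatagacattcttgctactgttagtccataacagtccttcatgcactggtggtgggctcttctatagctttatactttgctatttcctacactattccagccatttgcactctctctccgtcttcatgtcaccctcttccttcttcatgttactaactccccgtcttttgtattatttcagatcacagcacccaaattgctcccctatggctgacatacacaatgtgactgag
Olfr1173: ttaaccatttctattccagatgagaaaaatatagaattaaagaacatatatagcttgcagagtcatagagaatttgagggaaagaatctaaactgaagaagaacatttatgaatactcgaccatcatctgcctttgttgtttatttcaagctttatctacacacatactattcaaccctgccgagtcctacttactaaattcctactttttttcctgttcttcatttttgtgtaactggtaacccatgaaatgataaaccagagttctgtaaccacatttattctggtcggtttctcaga

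RefSeq windows were found for 186 of the 293 members (187 windows). None of the 205 windows of any gene in the span and flanks overlapped a peak of any library. Overlaps were not counted for windows elsewhere, so this is not read as particular to the cluster. The members' windows were poor in G and C: their median GC content was 32% over members, against 36.7% over other Olfr genes and 53.3% over all other genes. In 130 of 187 windows (69.5%), as in those of Olfr1009 and Olfr1173, the annotated start was the letters ATG, against 73.1% of the windows of other Olfr genes and 3.85% of those of all other genes. Most of these windows therefore precede an annotated start that is a start codon, and the transcription start is not placed by them. TAATTA occurred in 46 windows of members (24.6%), in 17.1% of those of other Olfr genes and in 5.29% of all windows. CCCNNGGG, the core recognised by Ebf factors, occurred in 4 windows of members (2.14%), in 3.29% of other Olfr windows and in 13.7% of all windows. AGGNGGC, a core of the CTCF motif, occurred in 3 windows of members (1.60%), in 5.78% of other Olfr windows and in 29.4% of all windows. Both strands were searched. These are matches to letters and no binding sites, and the part of GC content in these shares was not tested.

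The members were far from the regions of every factor. The median distance from a member to the nearest region was 2756 kb for Lhx2 KO Ldb1, 1024 kb for Olfr1507 Ldb1, 1306 kb for Rad21, 1143 kb for CTCF and 860 kb for control Ldb1. For other Olfr genes the median was 401 kb for Rad21, 235 kb for CTCF and 158 kb for control Ldb1. Members were thus 3 to 6 times as far from a region as other Olfr genes by these medians. Single other Olfr genes lay farther from a Rad21 region than any member, up to 4367 kb against 2610 kb. The clusters next in size were closer too: the median distance to a control Ldb1 region was 323 kb in the chromosome 9 cluster (127 members), 407 kb in the chromosome 7 cluster from Olfr543 to Olfr650-ps1 (116 members) and 247 kb in the chromosome 19 cluster (91 members). In the same order of clusters the medians were 731, 811 and 566 kb for Rad21 and 555, 207 and 265 kb for CTCF. For Rad21 these clusters were thus nearer to the chromosome 2 cluster than other Olfr genes were. Neighbouring genes share their nearest region, so these medians describe a few positions seen from many genes and get no test.

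Within 10 kb of a region lay 0 of 293 members for Rad21, 0 for CTCF and 1, Olfr1009, for control Ldb1. Over all 1427 Olfr genes the shares were 1.26%, 3.57% and 5.96%. For control Ldb1 the count of other Olfr genes was 84 of 1134 (7.41%). Within 100 kb lay 2 members for Rad21, 11 for CTCF and 35 for control Ldb1, against 164, 331 and 443 of the 1134 other Olfr genes. Over 1 Mb from the nearest region of the same factor lay 190 members for Rad21, 162 for CTCF and 130 for control Ldb1 (44.4%). Genes over 1 Mb away were not counted for other Olfr genes. The upper quartile of their distances was 786 kb for Rad21, 455 kb for CTCF and 334 kb for control Ldb1. With the peaks of all 11 libraries, only 5 members (1.71%) lay over 1 Mb from the nearest peak. The farthest member from a control Ldb1 region was the pseudogene Olfr1171-ps1, at 2154 kb. Protein-coding members and pseudogenes had medians of 888 and 606 kb to control Ldb1 regions, 1185 and 1045 kb to CTCF regions and 1348 and 1251 kb to Rad21 regions.

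Receptor families followed their place along the cluster. By the MOR names in RefSeq, 258 members fell into 50 families, and 35 had no such name. MOR175 (9 members, Olfr996 to Olfr1009), in the lower part, lay 8.14 to 150 kb from a control Ldb1 region. MOR203 (7 members, Olfr987 to Olfr995), at the lower end, lay 198 to 294 kb away. The largest family, MOR264 (21 members, Olfr1112 to Olfr1150-ps1), lay 1093 to 1747 kb away, and MOR174 (19 members, Olfr1155 to Olfr1177-ps), which filled the middle, lay 1844 to 2154 kb away. MOR233 (18 members) lay 1088 to 1480 kb away and MOR231 (15 members) 578 to 1041 kb away. At the upper end, MOR228 (5 members, the last of them Olfr1274) lay 12.6 to 376 kb away. MOR264, MOR174 and MOR233 thus lay wholly over 1 Mb from any control Ldb1 region, as did small families between them such as MOR135 (1 member, 1899 kb). In the lower part, MOR185 (10 members) lay 21.3 to 324 kb away. Distance thus went with place along the cluster and not with family size. Olfr1019, the sole MOR180 member, known as a receptor for the fox odour component trimethylthiazoline, lay 110 kb from a control Ldb1 region.

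**Figure D4:**
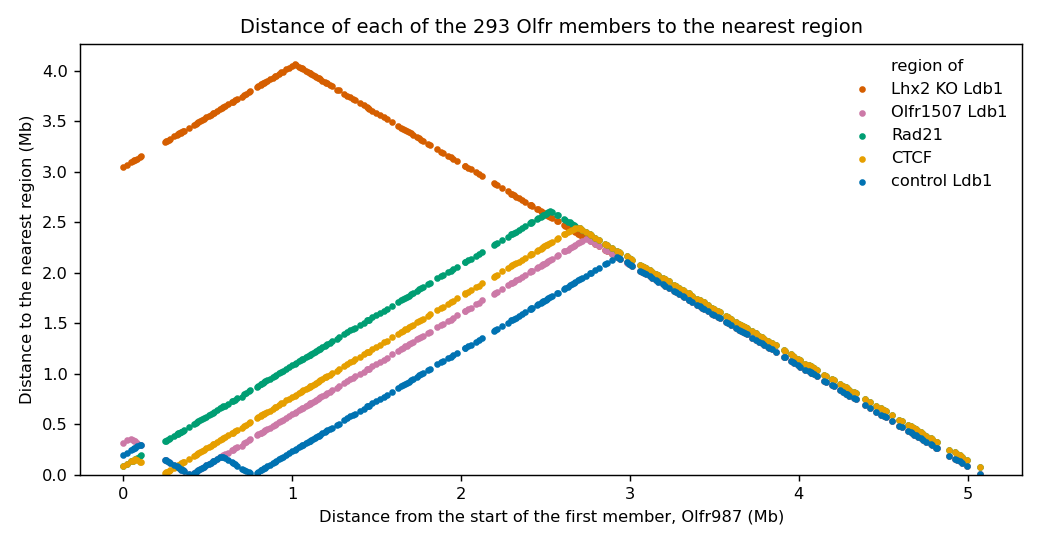
Distance in Mb from each of the 293 members to the nearest region of each group, by position from the start of Olfr987 in Mb (1 point per member and group). For Rad21, CTCF and control Ldb1 the distance peaks at 2610, 2449 and 2154 kb in the middle of the cluster; it is least at Olfr1274 for Rad21, at Olfr996 for CTCF and at Olfr1009 for control Ldb1. For Lhx2 KO Ldb1 it reaches 4064 kb.

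The longest stretch with no Rad21 region was 5.23 Mb and held all 293 members, from Olfr987 to Olfr1274. It was 28th in length of 9861 stretches between neighbouring Rad21 regions of the genome, and the longest on chromosome 2, where the median over the genome was 84.1 kb. The longest stretch with no CTCF region was 4.91 Mb and held 284 members (96.9%), from Olfr996 to Olfr1274, and was 11th of 24856. The longest stretch with no control Ldb1 region was 4.32 Mb, chr2:86098972-90414263, with 242 members (82.6%), from Olfr1038-ps to Olfr1274, and was 13th of 22768. Each was the longest of its factor on chromosome 2. On the autosomes alone they stood at place 21, 6 and 8. Taking every peak of all 11 libraries, a stretch of 2.06 Mb with 100 members (34.1%), from Olfr1178 to Olfr1274, had no peak at all.

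The CTCF and control Ldb1 stretches depended on single libraries. Without the second CTCF library the CTCF stretch was 2.12 Mb, since the first library alone called peaks near Olfr1069-ps1 and Olfr1177-ps, and 4 members then lay within 10 kb of a CTCF peak. Without control Ldb1 library 1 or library 2 the region near Olfr1037 was lost and the control Ldb1 stretch was 4.68 Mb.

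The cluster had few Ldb1 regions for its number of genes. Within 100 kb of the stretch of members lay 3 control Ldb1 regions, against a median of 3.5 in the 42 other clusters (range 0 to 10). Per 100 Olfr genes these were 1.02 regions in the chromosome 2 cluster, against a median of 15.8 in the others (range 0 to 200). Of the other clusters 40 had more per gene and 2 had fewer. The cluster had 97.7 Olfr genes per control Ldb1 region, while the chromosome 9 cluster, the next in size, had 21.2. Some smaller clusters had more than that: 42 in the cluster from Olfr651 to Olfr692, 32 from Olfr172 to Olfr209 and 29 from Olfr543 to Olfr650-ps1. The flanks had the same length for every cluster, so these ratios also depend on cluster size, which was not adjusted for. The count of regions was thus near that of clusters with far fewer genes. For Rad21 the counts were 2 regions in the chromosome 2 cluster and its flanks, against a median of 1 elsewhere, and for CTCF 3, against a median of 4. None of these counts is per Mb, and the other clusters were shorter. A single cluster is compared here with 42 others, so this is a description.

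**Figure D5:**
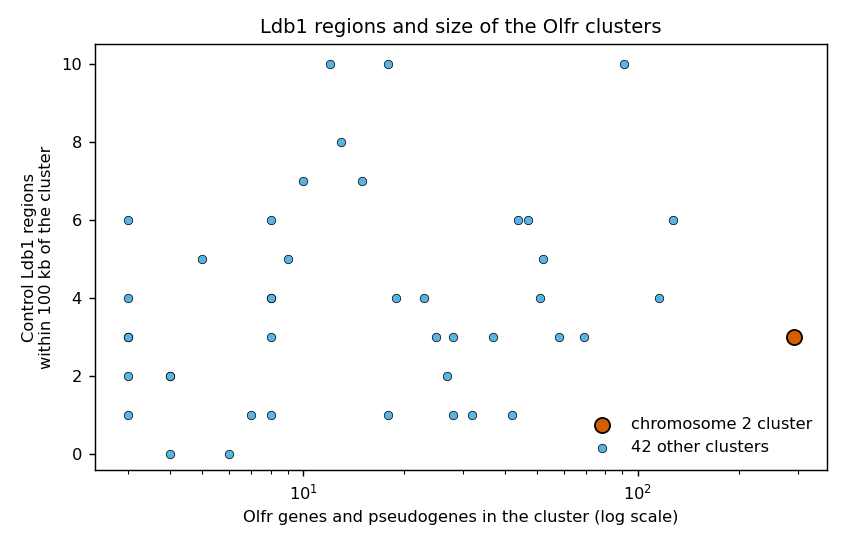
Control Ldb1 regions within 100 kb of each Olfr cluster against the number of Olfr genes and pseudogenes in it (log scale), for the chromosome 2 cluster and the 42 other clusters (1 point each). The chromosome 2 cluster has 293 members and 3 regions; the other clusters have up to 127 members and up to 10 regions.

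Retention of the 8 control Ldb1 regions of the span and flanks was read in the Lhx2 KO lists. The first Lhx2 KO list had a peak at 1 of the 8, where 12.7% of the genome's control regions had one, and the second at the same 1, where 2.17% had one. Both lists shared 1 of 8, against 1.68% over the genome. The retained region was the one beyond Olfr1274, and the 7 others, among them the region near Olfr1009, had no peak in either Lhx2 KO list. The list lengths bear on this count. When the control lists were cut to their 4290 top-scoring peaks, each kept 2 of the 8 regions, and when cut to 542 peaks each kept 1. Over the genome these cut lists kept 18.8% and 2.4% of the control regions. The first Lhx2 KO list thus held 1 region of the cluster where equally long control lists held 2, and the second held as many as they did. The 8 regions were defined from these same control lists, which favours the control lists, so they are no independent reference and no loss is read from 1 against 2. In the other Olfr clusters with their flanks, 32 of 164 control regions were found again in the first Lhx2 KO list, 18 in the second and 16 in both. Neither Lhx2 KO list had a peak in the span or flanks outside the control regions.

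In the Olfr1507 lists, 2 and 6 of the 8 regions had a peak, against 21.8% and 73.5% of all control regions, and both lists shared 2, against 21.6%. These counts, 25% and 75%, were close to the genome-wide shares. The 2 shared regions were the strong ones, near Olfr1009 and beyond Olfr1274. Control lists cut to 5095 peaks kept 2 of 8 each, and those cut to 21250 kept 7 and 7 of 8, with 5 in the third control library, whose 16067 peaks are fewer than that. Over the genome these lists kept 22.3% of control regions at 5095 peaks, and 87.9, 86.3 and 68.6% at the longer cut. The span counts were near these shares. The second Olfr1507 list also had 3 of its 9 peaks at no control region, all below Olfr987: 1 in Lrrc55 and 2 at 81.7 and 77.5 kb before Olfr987. The first Olfr1507 list had none of these. Rad21 peaks lay at 1 and 0 of the 8 regions, against 4.32% and 23.3% of all control regions, and CTCF peaks at 0 and 0, against 4.76% and 9.22%.

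Comparisons of library means used the exact two-sided permutation test, in which 2 against 3 libraries allow no p below 0.1 and 2 against 2 none below 0.333, so none could pass 0.05. With the nearest peak of each library in place of regions, the median distance from a member was 1412 and 2756 kb in the Lhx2 KO Ldb1 libraries and 860, 860 and 1024 kb in the control Ldb1 libraries. The difference was 1170 kb, both Lhx2 KO libraries lay above all control libraries, and p was 0.1 (exact permutation). When all lists were cut to the length of the shortest, 542 peaks, the difference was 1117 kb. At that length each list held 1 peak in the span and flanks, the one beyond Olfr1274, and the share difference was 0. The 1117 kb thus came from nearest peaks outside the span and flanks and describes no difference in peaks within them. It rested on the Lhx2 KO libraries unequally: it was 1842 kb without the first and 498 kb without the second. The share of a list's peaks that fell in the span and flanks was 0.0233 and 0.185% in the Lhx2 KO lists and 0.0322, 0.0277 and 0.0311% in the control lists, with groups that overlapped (difference 0.0736 percentage points, exact permutation p = 0.4). That mean rests on the second Lhx2 KO list, where 1 peak is 0.185% of the list; without it the difference was -0.00702.

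For Olfr1507 Ldb1 the median distance was 1024 kb in both libraries, 110 kb above the control mean (exact permutation p = 0.3). With the lists cut to the length of the shortest, 5095 peaks, the difference was 204 kb (exact permutation p = 0.1, the smallest possible). At that length the second Olfr1507 list lost its peak near Olfr1009 (rank 6193 of 21250). The first Olfr1507 list and each control list kept theirs. The 204 kb thus rested on 1 peak of 1 library, and no difference between the groups is read from it. The Olfr1507 share of peaks was 0.0393 and 0.0424%, above all 3 control values (difference 0.0105 percentage points, exact permutation p = 0.1). With lists cut to equal length, and so without that peak, the difference was -0.00981.

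For Rad21 the median distance was 1282 and 1306 kb and for CTCF 341 and 1143 kb. Rad21 lay 380 kb above control Ldb1 with no overlap (exact permutation p = 0.1), and CTCF differed from control Ldb1 by -172 kb with overlap (exact permutation p = 0.7), or by 229 kb without the first CTCF library and -573 kb without the second. The Rad21 mean was 552 kb above that of CTCF (exact permutation p = 0.333), and the difference was -81.2 kb when the lists were cut to equal length. It was 151 kb without the first CTCF library and 953 kb without the second. The shares of peaks were 0.0572 and 0.0213% for Rad21 and 0.0326 and 0.0292% for CTCF, and they overlapped with control Ldb1 in both cases (exact permutation p = 0.7 and 0.9) and with each other (p = 1, exact permutation).

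The median percentile of the peaks in the span and flanks was 99.99 and 100 in the Lhx2 KO Ldb1 lists, from 1 peak each, and 58.7 and 55.6 in the Olfr1507 Ldb1 lists. It was 66.8 and 83.7 for Rad21, 47.0 and 50.4 for CTCF, and 50.1, 62.3 and 53.9 for control Ldb1. The lists differ in length, and no comparison with equally long lists was made for this measure, so these values are given as a description and no difference is read from them. Differences in this measure appear among the alternatives below only to show how far they moved.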

How the data were processed

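Peak lists of 11 ChIP-seq libraries in BED format were used. The 14 RNA samples and 3 input samples were not analysed here, and 2 RNA samples whose labels disagree on the sorted cells were left without a group. As the labels' protocols describe, dissociated cells of the olfactory epithelium were fixed with formaldehyde, sorted by fluorescence and sonicated. Per the submitters' processing notes the build was mm10 and the tools, named without roles, included HOMER 4.7, Bowtie2 2.3.2 and cutadapt 1.9.1. The peak threshold, the control library, the filters and the placing of reads that match several receptor copies were not given in the sources used here. A list holds the peaks of a single library. The score of a peak is the authors' deposited whole number, with unknown scaling between libraries, and served only for ranks within a list. Depth is unknown, so no counting intervals are given.

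Peaks on the main chromosomes were kept and linked by an overlap of at least 1 base. Control Ldb1 regions were ranked by mean percentile, an absent peak counting as 0. Distances ran from gene body to peak edge. Genes were placed by a RefSeq table (GRCm38.p6) with 388 scaffold genes left out; it gives no exons, and intergenic means outside every listed gene body. No genome sequence was used, so peaks were not searched for motifs. Library means were compared by exact permutation and densities by exact sign-flip tests (Python 3.11.15, numpy 2.4.6, pandas 2.3.3). The steps were tested on simulated data and recovered 10 of 10 planted quantities. Alternatives changed list length, flanks, region rule, overlap and libraries, and compared same-numbered libraries. Members with a peak within 1 kb, those flanking the longest free stretches and those nearest the strongest regions were named, and other members were chosen after their values were seen. The members and lists were chosen with earlier results of these data known.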

Additional observations from a re-analysis of the deposited data

How the results depend on the processing

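Of 234 values of 29 results under alternatives, 200 were counted as the same, though sizes could still move. Tested results had to keep their direction and their side of the 0.05 threshold. In the 15 comparisons of library means no p could pass 0.05, so only their direction could count. Where no test was made, retention was held to a 95% interval over the regions, used for this count only. Stretch lengths were held to the SD between libraries and member counts to a fixed ratio, which is no error. The mean density was lower in the span in every alternative. Without 1 library the differences were -8.09 to -6.65 peaks per Mb against the rest of chromosome 2 and -1.44 to -1.18 against other clusters. With the upper 50% of each list by score they were -3.61 and -0.618, and with 100 kb flanks -7.07 and -2.95. With the upper 50% the second Lhx2 KO list was higher in the span than on the rest of chromosome 2 (0.185 against 0.133 peaks per Mb), so that 10 of 11 libraries were lower; in all other alternatives every library kept was lower. The Lhx2 KO share difference was 0.173 with the upper 50% of each list. Lists cut to the shortest list gave differences from control Ldb1 in share of 0 for Lhx2 KO and -0.00981 for Olfr1507, and in distance of 32.7 kb for CTCF; Rad21 minus CTCF was then -81.2 kb. The upper 50% of each list by score gave a CTCF share difference of -0.00560. With no flanks and with 200 kb flanks the share differences were -0.0111 and -0.00796 for CTCF and -0.00820 and -0.00194 for Rad21, and the rank differences for Olfr1507 were -13.0 and -4.02. Leaving out 1 library gave share differences of -0.00702 to 0.154 (Lhx2 KO), -0.00110 to 0.00227 (CTCF), -0.00901 to 0.0269 (Rad21) and -0.00960 to 0.0263 (Rad21 minus CTCF), rank differences of -0.927 to 5.17 (Olfr1507) and distance differences of -573 to 229 kb (CTCF). The same range was 498 to 1842 kb for the Lhx2 KO distance. With control lists cut to the same length, retention was 50% and 100% in the Lhx2 KO lists, 100% in both together, 100% in the first Olfr1507 list and 100% in both Olfr1507 lists, of only 2 or 1 regions left. Counting any peak of any library, the longest free stretch was 5.17 Mb for Rad21 and 2.12 Mb for CTCF, and 4 members lay within 10 kb of CTCF; regions of all libraries gave 4.68 Mb for control Ldb1. Without 1 library the free stretches were 5.17 to 5.23 Mb (Rad21), 2.12 to 4.91 Mb (CTCF) and 4.32 to 4.68 Mb (control Ldb1), and 0 to 4 members lay within 10 kb of CTCF. Within 50 kb lay 5 members for CTCF and 14 for control Ldb1. Causes were not tested, beyond the shorter lists and fewer libraries named. Replicate numbers are shared only as numbers; with the replicate block over same-numbered libraries the Lhx2 KO minus control difference was 0.0740 for share, 1224 kb for distance and 43.8 for rank, no direction turned in any of the 15 comparisons, and 2 pairs allow no p below 0.5. With 200 kb flanks the differences from control Ldb1 in median percentile were 22.4 for Lhx2 KO and 9.48 for Rad21, beside 44.6 and 19.9 with 100 kb flanks, and the Rad21 value was 11.4 to 28.3 without 1 library. Unknown read depth limits every absence of a peak.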
